A study of Drosophila melanogaster with 2 samples.

Results

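Peak intervals that hold 2 or more summits in a map of Twist on embryonic chromatin are described here. A summit is the single position at which a peak caller places the top of a peak, and a peak list can give 1 stretch of chromosome several summits, each on a line of its own. The members were chosen by their coordinates: a line of the IDR list was kept where its chromosome, start and end stood on at least 2 lines with different summits. IDR (irreproducible discovery rate) lists use how well peak ranks recur between replicates to decide which peaks are kept. The rule selected 293 of 6205 intervals (4.72%, 95% Wilson interval 4.22 to 5.28), with 604 of 6516 summits (9.27%). Of these intervals, 275 held 2 summits and 18 held 3. Because the peak calls themselves selected the members, their number, spacing and signal are given as a description, with no test.

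The chromatin came from whole Drosophila melanogaster embryos of mixed sex, 2 to 12 h old, of a transgenic line stably expressing Twist with GFP (green fluorescent protein) at its C-terminal end. Immunoprecipitation and sequencing gave 1 group of 2 biological replicates, both set against a shared control. The sample descriptions give the antibody as anti-GFP, while the antibody label itself reads twi, and anti-GFP is taken here. No untagged or mutant group was compared, and the sources used here do not say whether the line also made untagged Twist or which promoter drove the fusion. The age range spans many stages and the embryos were used whole, so a peak cannot be assigned to a stage or a tissue, and a locus bound in few cells and one bound weakly in many cannot be told apart.

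Twist is a basic helix-loop-helix transcription factor that specifies the mesoderm of the fly embryo, the germ layer that gives rise to muscle, heart and fat body. Such factors bind DNA as dimers at E-boxes, short sites of the form CANNTG, and Twist is best known for binding CATATG and CACATG. In what follows, E-box means CATATG or CACATG only, and other CANNTG sites were not sought. Enhancers of the early embryo often hold several sites of 1 factor, at distances shorter or longer than the fragments that chromatin immunoprecipitation resolves.

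The following 6 stretches show what a pair of summits about 200 bp apart looks like in sequence, with at most 50 bases beyond each summit. The first 4 are the highest-signal pairs with CATATG or CACATG within 50 bp of both summits, of the stronger alone, of the weaker alone and of neither. Other CANNTG sites, such as CAGATG at the weaker summit of CadN, are not marked. The pairs at Him and sim have the highest signal near genes of the lists of heart mesoderm and of neurogenic ectoderm. Pairs were taken from the arms X, 2L, 3L and 3R, outside annotated UTRs. All are the plus strand of the dm6 (Release 6) assembly, written 5′ to 3′, and capitals mark CATATG and CACATG on either strand, so that CATGTG is CACATG of the minus strand. Where capitals run to CACATGTG, matches on both strands overlap.
hth, chr3R:10602392-10602691: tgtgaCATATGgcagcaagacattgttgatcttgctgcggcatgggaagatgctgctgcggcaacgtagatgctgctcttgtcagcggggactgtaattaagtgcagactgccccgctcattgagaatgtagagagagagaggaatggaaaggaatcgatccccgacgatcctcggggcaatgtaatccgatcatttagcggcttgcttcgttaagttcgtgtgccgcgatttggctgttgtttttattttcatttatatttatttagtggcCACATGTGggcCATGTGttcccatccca
CadN, chr2L:17748866-17749164: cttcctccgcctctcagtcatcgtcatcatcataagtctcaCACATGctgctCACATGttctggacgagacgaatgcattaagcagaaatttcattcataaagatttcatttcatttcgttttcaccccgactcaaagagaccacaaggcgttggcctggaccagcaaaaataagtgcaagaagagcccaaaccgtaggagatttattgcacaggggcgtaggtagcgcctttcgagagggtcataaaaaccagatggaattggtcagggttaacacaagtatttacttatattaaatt
CG9254, chr2L:13597375-13597673: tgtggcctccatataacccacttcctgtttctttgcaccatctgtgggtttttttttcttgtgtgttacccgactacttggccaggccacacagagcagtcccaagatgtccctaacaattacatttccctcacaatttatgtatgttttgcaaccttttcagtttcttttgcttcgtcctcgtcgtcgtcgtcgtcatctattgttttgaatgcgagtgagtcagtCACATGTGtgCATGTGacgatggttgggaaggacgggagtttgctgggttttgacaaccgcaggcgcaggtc
cbt, chr2L:481047-481346: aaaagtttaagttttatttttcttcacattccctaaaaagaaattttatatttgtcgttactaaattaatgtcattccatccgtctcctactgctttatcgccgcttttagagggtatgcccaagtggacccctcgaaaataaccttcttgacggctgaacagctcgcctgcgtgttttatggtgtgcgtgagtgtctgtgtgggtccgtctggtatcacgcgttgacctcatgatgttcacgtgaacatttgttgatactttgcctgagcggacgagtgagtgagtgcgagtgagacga
Him, chrX:18209081-18209379: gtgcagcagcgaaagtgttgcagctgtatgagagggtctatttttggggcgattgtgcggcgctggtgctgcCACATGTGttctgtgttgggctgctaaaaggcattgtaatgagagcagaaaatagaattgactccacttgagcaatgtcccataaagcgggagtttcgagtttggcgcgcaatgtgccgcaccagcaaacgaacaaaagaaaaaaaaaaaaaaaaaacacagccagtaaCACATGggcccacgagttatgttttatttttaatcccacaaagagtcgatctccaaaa
sim, chr3R:13070142-13070441: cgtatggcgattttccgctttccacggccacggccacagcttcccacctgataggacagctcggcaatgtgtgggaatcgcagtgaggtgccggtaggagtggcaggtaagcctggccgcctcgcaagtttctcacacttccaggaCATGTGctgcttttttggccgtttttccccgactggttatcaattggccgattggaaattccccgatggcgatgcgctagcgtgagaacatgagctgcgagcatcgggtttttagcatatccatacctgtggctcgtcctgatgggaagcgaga
In the stretch at hth, which encodes a homeodomain partner of Hox proteins, the stronger summit was at base 50 and the weaker at base 251, with matches starting at bases 6, 273, 275 and 284. At CadN, which encodes a neuronal cadherin, both matches started near the stronger summit at base 46, at bases 42 and 53, and none lay at the weaker summit at base 254. At CG9254 the stronger summit was at base 42, while the 3 matches started at bases 228, 230 and 238, close to the weaker summit at base 258. At Him, which encodes an inhibitor of muscle differentiation, matches started at bases 73, 75 and 242 around summits at bases 50 and 250. The only match at sim, the midline regulator single-minded, started at base 147, between summits at bases 46 and 255.

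Summits farther apart are shown by the bases within 50 bp of the strongest and of the weakest summit of the 5 intervals of highest signal on 2L, 3L and X that hold such summits and have both windows outside UTRs. Close pairs were first merged into their stronger summit, so at aop and at tRNA:iMet-CAT-1-3 1 more summit is not shown, which at tRNA:iMet-CAT-1-3 is the one of lowest signal, 851.1. Strand, build and capitals are as above.
net, strongest summit, chr2L:90231-90331: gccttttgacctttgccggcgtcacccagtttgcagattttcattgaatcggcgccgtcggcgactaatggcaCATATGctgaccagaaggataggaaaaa
net, weakest summit, chr2L:91039-91139: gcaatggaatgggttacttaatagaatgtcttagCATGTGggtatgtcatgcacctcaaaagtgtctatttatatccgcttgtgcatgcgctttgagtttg
aop, strongest summit, chr2L:2163352-2163452: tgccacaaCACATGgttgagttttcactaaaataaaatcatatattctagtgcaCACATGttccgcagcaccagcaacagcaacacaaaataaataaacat
aop, weakest summit, chr2L:2162340-2162440: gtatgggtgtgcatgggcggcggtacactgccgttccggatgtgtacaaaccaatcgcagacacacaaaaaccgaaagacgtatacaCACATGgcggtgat
RasGAP1, strongest summit, chr3L:9856083-9856183: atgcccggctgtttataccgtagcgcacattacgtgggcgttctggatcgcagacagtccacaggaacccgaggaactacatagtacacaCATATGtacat
RasGAP1, weakest summit, chr3L:9856326-9856426: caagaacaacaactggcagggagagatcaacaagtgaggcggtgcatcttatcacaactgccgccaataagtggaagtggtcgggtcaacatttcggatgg
tRNA:iMet-CAT-1-3, strongest summit, chr3L:743307-743407: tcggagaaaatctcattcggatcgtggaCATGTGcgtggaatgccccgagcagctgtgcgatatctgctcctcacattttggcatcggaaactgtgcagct
tRNA:iMet-CAT-1-3, weakest summit, chr3L:742539-742639: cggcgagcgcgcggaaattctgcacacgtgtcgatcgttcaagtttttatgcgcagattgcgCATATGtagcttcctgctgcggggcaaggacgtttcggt
lncRNA:CR44619, strongest summit, chrX:12751265-12751365: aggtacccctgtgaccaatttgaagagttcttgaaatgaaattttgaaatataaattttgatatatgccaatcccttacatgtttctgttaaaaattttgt
lncRNA:CR44619, weakest summit, chrX:12752317-12752417: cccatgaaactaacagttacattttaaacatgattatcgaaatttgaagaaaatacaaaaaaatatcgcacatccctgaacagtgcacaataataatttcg
Both windows held a match at net, aop and tRNA:iMet-CAT-1-3, the strongest alone at RasGAP1 and neither at lncRNA:CR44619. Over all such intervals both summits had one in 19 of 69.

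The distance and order of the summits split the members into unlike kinds, and every later result is given with this split. Of the 311 pairs of neighbouring summits within an interval, 238 were at most 220 bp apart, and in 237 of those the stronger summit lay at the lower coordinate of the assembly (99.6%, 97.7 to 99.9). The exception was the pair at SA2, with ranks 659 and 678. The order did not follow the genes: among the 225 intervals whose 2 summits were at most 220 bp apart, the nearest gene was on the plus strand for 97 and on the minus strand for 128. The same order held for 142 of 142 neighbouring IDR summits at most 220 bp apart that lay in different intervals. It also held for 293 of 293 such pairs within intervals of replicate 1, for 389 of 389 of replicate 2 and for 508 of 509 of the pooled list. Pairs 221 to 400 bp apart had the stronger summit at the lower coordinate in 26 of 37 cases (70.3%), and pairs over 400 bp apart in 16 of 36 (44.4%, 29.5 to 60.4). The direction of the assembly's coordinates has no meaning to the embryo; what places the weaker summit of a close pair on 1 side was not tested, and the files used here hold no read positions.

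When each close pair was merged into its stronger, lower-coordinate summit, 69 intervals still held 2 or more summits, with 143 summits in all, and 224 held 1. These are called the separated intervals and the close-pair intervals below. The interval at SA2, with summits 201 bp apart, counts as separated only because its stronger summit lies at the higher coordinate. This split was made after the distances had been seen. In the separated intervals the strongest summit lay at the lower coordinate in 40 of 69.

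Close pairs dominated the spacing. The median distance between neighbouring summits was 205 bp (n = 311), the quartiles were 201 and 220 bp, and the range was 199 to 1052 bp. Exactly 199 bp separated 28 pairs, 202 pairs (65.0%) were at most 210 bp apart, and 36 (11.6%) were over 400 bp apart. No summits of any of the 4 lists used here lay closer than 199 bp. The same distance recurred outside the members: neighbouring IDR summits under 300 bp apart lay in the same interval in 268 of 439 cases and in different intervals in 171, where their median distance was 203 bp. Whether a close pair is a member thus rests on whether both summits were given the same interval. In the separated intervals the merged neighbours were a median of 0.548 kb apart.

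**Figure D1:**
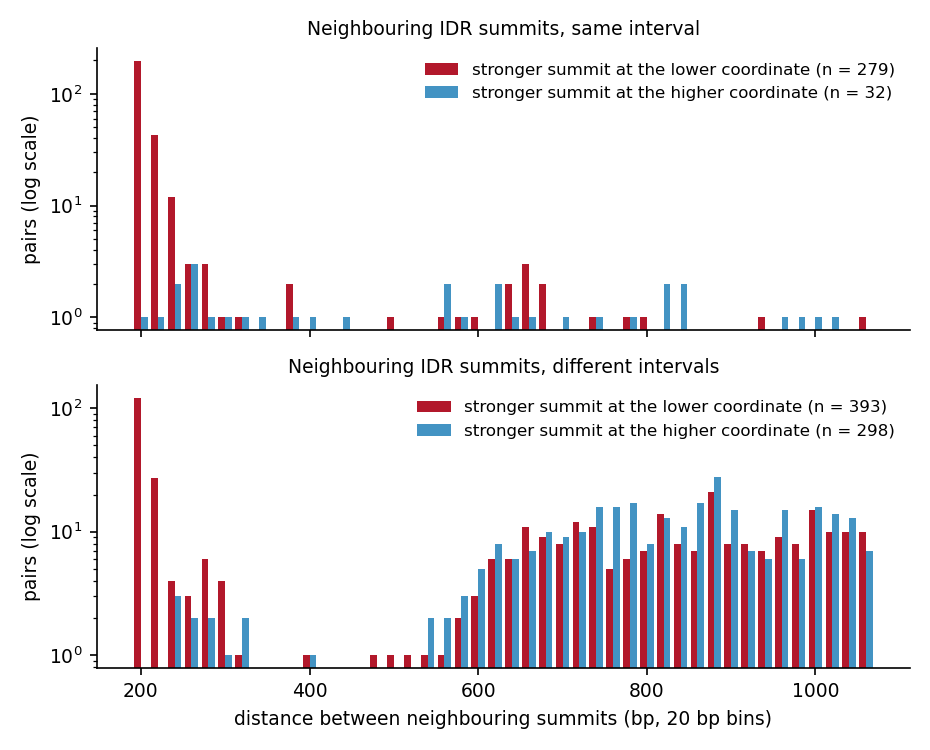
Distances between neighbouring IDR summits in bp, in 20 bp bins, with the number of pairs on a log axis; the upper panel holds the 311 pairs within an interval and the lower panel pairs in different intervals. Bars are coloured by whether the stronger summit lay at the lower or the higher coordinate; at about 200 bp nearly all bars are of the first colour in both panels, and over 400 bp both colours occur.

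Members were wide and of high signal. Their width had a median of 789 bp (359 to 2312), against 334 bp (109 to 1716) for the 5912 intervals with 1 summit. The strongest summit had a median rank of 699 among the 6516 IDR summits, against 3411.5 for single summits, where rank 1 is the highest deposited signal. With all intervals in 4 bins by the signal of their strongest summit, bin 1 being the highest, 15.7% of bin 1 were members, 2.77% of bin 2, 0.387% of bin 3 and 0.0645% of bin 4. The list's lower limit also entered the rule. The pooled list, whose 6516 highest-signal rows are the IDR rows, held 577 intervals with 2 or more summits. Of those, 272 had all their summits in the IDR list, 21 at least 2 but not all, 278 exactly 1 and 6 none. The lowest IDR signal was 171.558. The members just inside it had a weakest summit of signal 172.092 near MESR3, 172.344 near nuf and 172.357 near BNIP3, and the intervals just outside had one of 170.734 near moody, 170.657 near Ama and 170.337 near lncRNA:CR45039.

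Within an interval the summits were seldom equal. The weakest summit had a median of 0.424 of the signal of the strongest (exact 95% interval 0.391 to 0.459, n = 293), with values between 0.0732 and 0.990. In 23 intervals (7.85%) it exceeded 0.8, and in 55 (18.8%) it was under 0.25. Among intervals of 2 summits the median was 0.398 for the 225 at most 220 bp apart, 0.629 for the 24 at 221 to 400 bp and 0.483 for the 26 over 400 bp. After merging, it was 0.554 in the 69 separated intervals (0.471 to 0.669). In the order of those 225, 24 and 26 intervals, the strongest summit had a median rank of 722, 1348.5 and 523. No weakest summit can lie below the lowest IDR signal, 171.558, so a weaker strongest summit leaves only higher ratios. Ratios were not compared at like signal. The least equal pairs lay near FBtr0304360_df_nrg (a non-coding locus, 0.0732), Ire1 (a sensor of unfolded protein, 0.0792), net (0.0817), rib (a BTB-domain regulator of tube formation, 0.105) and cbt (0.125). The most equal lay near SA2 (0.990), CG44435 (0.989), CR46424 (0.979), lncRNA:CR45935 (0.971) and lncRNA:CR44077 (0.940). Of these 5 equal pairs, those at SA2 and lncRNA:CR45935 were at most 220 bp apart. Only that at lncRNA:CR45935 belonged to the close-pair intervals, since the order at SA2 kept it from being merged. The strongest summit at lncRNA:CR45935 had rank 5942 of 6516, near the lower limit of the list, which left little room for a low ratio.

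**Figure D2:**
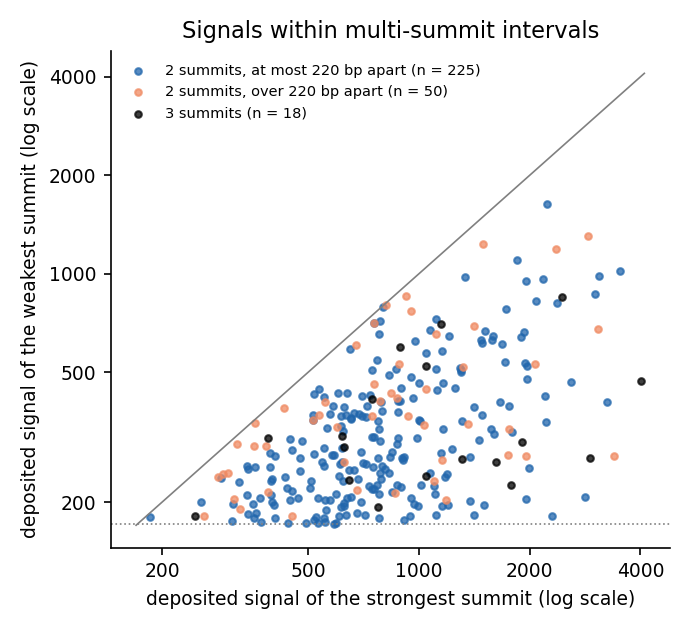
Deposited signal of the weakest summit against that of the strongest, both on log axes, for 293 intervals; the solid line marks equal signal and the dotted line the lowest signal among the weakest summits. Most points lie well below the line of equality, and those on it are mainly separated summits.

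The 10 intervals of highest signal were near ph-p, CG44286, net, cbt, CG9663, unc-5, CadN, aop, RasGAP1 and FBtr0304360_df_nrg. Close pairs were found at CG44286 and CG9663, where the stronger summit had a signal of 3530 and 3089 and the weaker of 1016 and 984. At cbt, which encodes a zinc finger transcription factor, the signals were 3239 and 405, and at CadN 3007 and 868. The stronger summit at CG44286 ranked 12 in replicate 1 and 15 in replicate 2, the weaker 462 and 527. Both summits at CadN kept their order too, the stronger ranking 35 and 10 and the weaker 694 and 430. In all 4 the weaker summit was the higher-coordinate one.

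Separated summits of high signal lay near coding and non-coding genes. At net, which encodes a basic helix-loop-helix protein known from wing vein patterning, summits of signal 3389 and 277 were 808 bp apart, with replicate ranks 19 and 8 for the strongest and 4425 and 2590 for the weakest. In an intron of unc-5, the netrin receptor, summits of signal 3058 and 677 were 991 bp apart and ranked 26 and 17 for the strongest and 1326 and 592 for the weakest. A second interval at unc-5 had summits 963 bp apart with signals 536 and 370. The weakest had 1.04 times the signal of the strongest in replicate 1 and 0.316 times in replicate 2. The largest distance between neighbours, 1052 bp, was found at lncRNA:CR44619, with signals 2364 and 1192. Its strongest summit ranked 25 in replicate 1 and 183 in replicate 2. At RasGAP1, which encodes a Ras GTPase-activating protein, summits of signal 2886 and 1303 were 243 bp apart.

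All 18 intervals with 3 summits held a distance over 220 bp. The strongest summit was the middle one in 6 and an outer one in 12. The highest was at ph-p, which encodes a Polycomb group protein, with signals of 471, 4021 and 1427 in coordinate order. Its summits lay 988 bp below and 677 bp above the strongest, all within 500 bp of an annotated start. The weakest held 3 matches to the E-boxes and the strongest none. The neighbouring paralogue ph-d had signals of 1313, 272 and 727, with the second 202 bp and the third 640 bp above the first. In aop, an ETS-domain repressor of receptor tyrosine kinase signalling, the signals were 272, 2914 and 474, and the summit of 474 lay 203 bp above the strongest. The interval at Dtg, named as a target of the BMP ligand Dpp, had 1624, 519 and 266, and that at zen, the homeodomain regulator of the amnioserosa, had 1048, 262 and 241. In an intron of apt, which encodes a regulator of tracheal and heart development, all 3 summits held an E-box, with signals of 968, 700 and 1144. The interval at CG42807 had summits of 1723, 225 and 1781. Its outer summits, 1041 bp apart, exchanged order between the replicates, the higher-coordinate one ranking 215 and 64 and the lower-coordinate one 155 and 107. At nvy, the homologue of the mammalian ETO co-repressors, there were a pair of intervals with 3 summits each, of rank 103 and 402. The remaining intervals of this kind lay near tRNA:iMet-CAT-1-3, cnn, CG6465, lncRNA:CR45726, lncRNA:CR45941, E(spl)m5-HLH, lncRNA:CR42850, lncRNA:CR44764 and PRAS40.

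**Figure D3:**
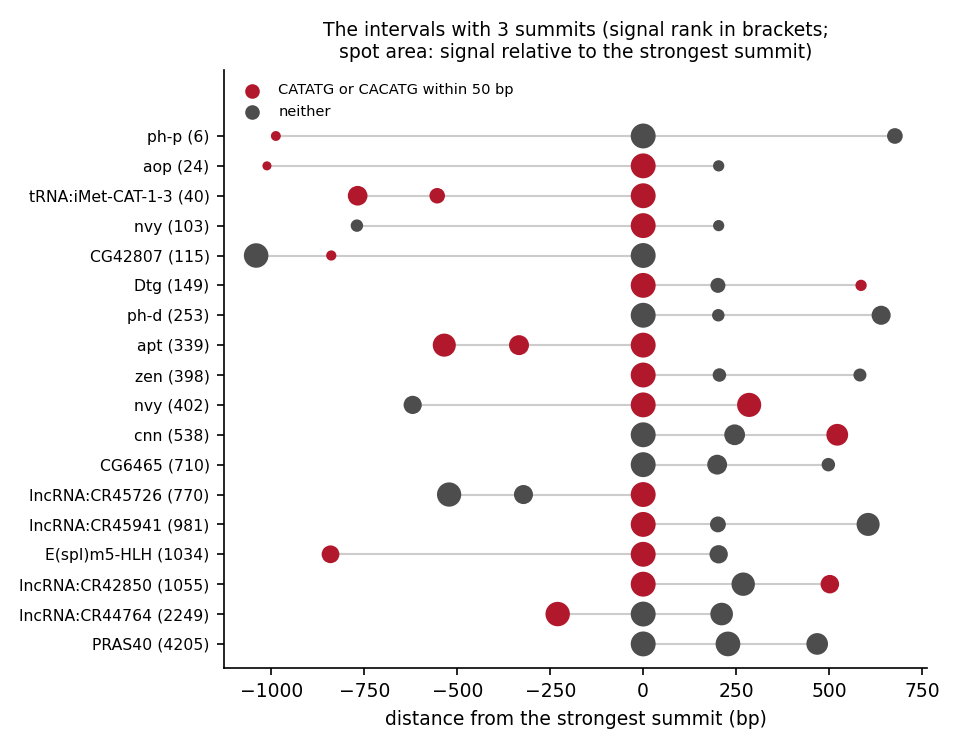
Position in bp of each summit relative to the strongest, increasing with the coordinate, for the 18 intervals with 3 summits, named by nearest gene with the signal rank of the strongest summit in brackets. Spot area is the signal relative to the strongest summit and colour marks an E-box within 50 bp; many intervals have a small spot about 200 bp to the right of a larger one.

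Recurrence was read by giving each summit its own replicate summit within 100 bp. Recurrence was in part built into the IDR list, which was derived from both replicates. Its rows are the 6516 pooled rows of highest signal, and not every one had a partner in both replicates. The share of all IDR summits with a partner in both was 95.4%. Among member summits it was 93.0% (562 of 604, 90.7 to 94.8), against 95.7% of single summits. In replicate 1, 580 had a partner and in replicate 2, 586, and none lacked one in both. Every summit had its partner in both replicates in 253 of 293 intervals (86.3%, 81.9 to 89.8), in replicate 1 alone in 16, in replicate 2 alone in 23 and in neither in 1. After merging, it was 59 of 69 separated intervals (85.5%). All partners lay within 1 interval of replicate 1 in 165 cases (56.3%), within 1 of replicate 2 in 186 (63.5%) and within 1 of each in 129 (44.0%), so the interval was a less recurrent unit than its summits. Matched member summits moved by a median of 8 bp in replicate 1 and 9 bp in replicate 2, and single summits by 9 and 10 bp. Only partners within 100 bp entered these medians.

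The order of the signals was compared between replicates as well. Among close pairs with all partners, the same summit was the stronger in both replicates in 199 of 199. Close pairs within intervals had the stronger summit at the lower coordinate in 293 of 293 cases of replicate 1 and 389 of 389 of replicate 2. Across different intervals it was 98.1% and 98.6%. The 199 of 199 was thus nearly fixed in advance and is no separate sign of recurrence. Among wider pairs the same summit was the stronger in both replicates in 36 of 45, and in separated intervals in 47 of 59. Over both kinds of pair, most of them close, it was 235 of 244 (96.3%). Where the weaker had at most 0.8 of the signal of the stronger it was 228 of 230, and over 0.8 it was 7 of 14. The weakest summit's share of the signal of the strongest had a median of 0.415 in replicate 1 (n = 269) and 0.400 in replicate 2 (n = 276), and it exceeded 1 in 4 and 7 intervals. At CG32182 the same pair gave 0.640 in replicate 1 and 1.52 in replicate 2. At Pdrg1, whose summits lie 506 bp apart, the strongest 1039 bp from Mef2, which encodes the MADS-box regulator of muscle differentiation, it gave 0.522 and 1.70.

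**Figure D4:**
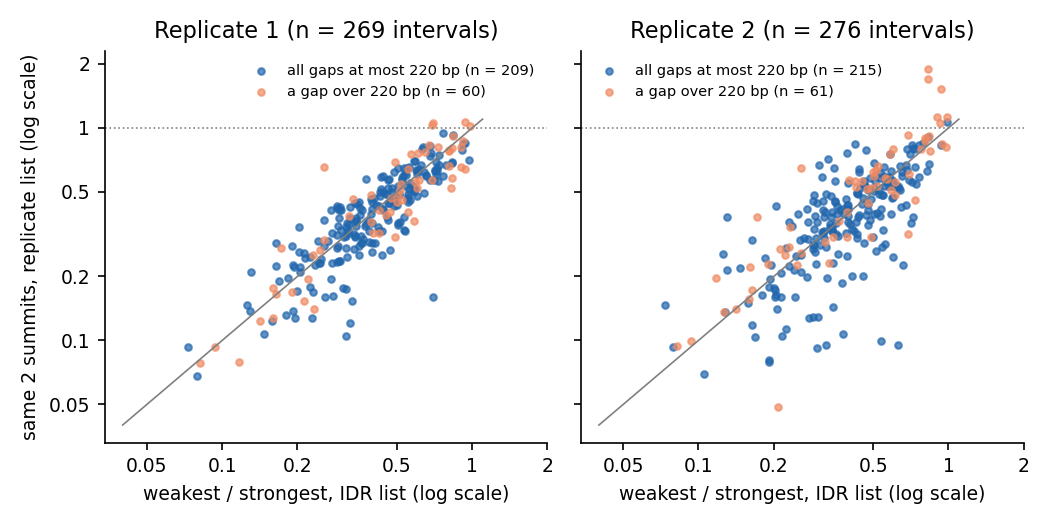
Signal of the weakest over the strongest summit in each replicate list against the same ratio in the IDR list, on log axes, for the intervals with every summit matched (269 in replicate 1, 276 in replicate 2). Points above the dotted line at 1 exchanged their order, and these are nearly all intervals with a distance over 220 bp.

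E-boxes were read from the genome and were not used by the rule. CATATG or CACATG, on either strand, lay wholly within 50 bp of 28.2% of all IDR summits and in 7.08% of the 1323188 windows of the same length that tile the genome. It lay there at 35.4% of member summits (214 of 604, 31.7 to 39.3), against 27.5% of single summits (26.4 to 28.7). Part of that goes with signal: in 4 bins of summits by rank, bin 1 being the highest, it was 43.8% of member and 36.1% of single summits in bin 1, 24.2% and 27.7% in bin 2, 29.1% and 24.2% in bin 3 and 26.8% and 23.4% in bin 4. At the strongest summit of an interval it was 44.0% (129 of 293), against 27.3% at the weakest (80). The strongest alone had it in 87 intervals and the weakest alone in 38, both in 42 and neither in 126. The difference of 16.7 percentage points had an adjusted p of 1.39e-05 (exact McNemar test, two-sided, adjusted over 2 tests by Benjamini-Hochberg). Intervals are not independent replicates, so these p-values describe the list and not the spread between embryos.

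That difference came mainly with the close pairs. In the 224 close-pair intervals the E-box was at 41.5% of strongest and 22.3% of weakest summits, with 70 intervals one way and 27 the other (exact McNemar p = 1.48e-05). In the 69 separated intervals it was at 52.2% and 43.5%, with 17 and 11 (exact McNemar p = 0.345), and 19 intervals had it at both. Whether the difference itself differed between the 2 kinds was not tested. Over all merged summits of the separated intervals the share was 47.6% (68 of 143, 39.5 to 55.7). For summits over 400 bp apart in intervals of 2, the E-box was at 14 of 26 strongest and 13 of 26 weakest summits.

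The ground between the summits had fewer E-boxes. In the 177 intervals with neighbours far enough apart for such windows at the summits and the midpoint not to overlap, the stronger neighbour had an E-box in 45.8% and the midpoint in 12.4%. The stronger neighbour alone had it in 69 and the midpoint alone in 10 (exact McNemar test, two-sided, adjusted p = 1.11e-11), and the weaker neighbour had it in 29.4%. This test sets a called summit against a place between summits, and E-boxes lay at 28.2% of all IDR summits against 7.08% of genome windows. It therefore does not set members apart from single summits, beside which no position at the midpoint's distance was read. The weakest summit was also set against the position at the same distance on the other side of the strongest, a comparison added after the data were seen. An E-box lay at 27.3% of weakest summits and 13.3% of those mirror positions, with 70 and 29 intervals discordant (exact McNemar p = 4.61e-05). In close-pair intervals this mirror is always the lower-coordinate side. At 205 bp above the strongest summit of close-pair intervals the share was 22.3%, and 205 bp below it 9.38%. At 5912 single summits the same 2 positions had 7.66% and 8.07%, near the share of all genome windows. Weaker summits of close pairs thus had E-boxes more often than ground at that distance from a single summit; the members were selected for a summit there, and the signal of single summits is lower. Among single summits in bin 1 the 2 shares were 7.38% and 8.68%.

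E-boxes lay off centre at the strongest summit of close pairs. Within 100 bp of the strongest summit of close-pair intervals, 133 matches had their centre on the lower-coordinate side and 62 on the higher (68.2% lower, 61.4 to 74.3). At the weakest summit the counts were 49 and 59 (45.4%, 36.3 to 54.8). In separated intervals they were 56 and 68 (45.2%, 36.7 to 53.9), and at single summits 1574 and 1659 (48.7%, 47.0 to 50.4). Along the 225 pairs at most 220 bp apart, matches peaked at 16.0 per 100 intervals in the 20 bp before the stronger summit, fell away between the summits and had a lower, broader rise around the weaker. The highest bin of that rise lay beyond the weaker summit, at 240 to 260 bp, with 7.56 matches per 100 intervals. Within 20 bp of the stronger summit there were 24.4 per 100 intervals, 8.44 from 80 to 120 bp towards the weaker, 11.6 from 180 to 220 bp, and 4.44 at that distance on the other side.

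**Figure D5:**
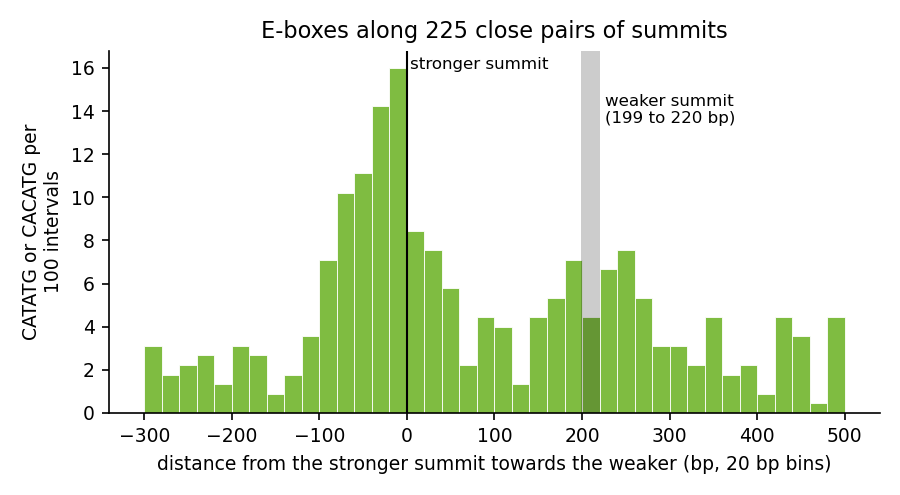
Matches to CATATG or CACATG per 100 intervals, in 20 bp bins, along the axis from the stronger summit (at 0) towards the weaker (grey band, 199 to 220 bp) for 225 close pairs. The main rise lies just left of 0, which is the lower-coordinate side in 224 of the 225. A lower rise surrounds the grey band, with its highest bin to the right of the band.

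Members lay less often at promoters than other summits, taken as within 500 bp of an annotated transcript start. Of all IDR summits 39.5% did so, of member summits 28.3% (171 of 604, 24.9 to 32.0) and of single summits 40.6% (39.4 to 41.9). The limits over 604 take summits of 1 interval as independent, which they are not. Counting only the strongest summit of each interval gave 28.7% (84 of 293, 23.8 to 34.1). Introns held 42.4% of member and 37.8% of single summits, and intergenic ground 25.8% and 17.7%. Coding exons held 2 member summits (0.331%) and 78 single summits (1.32%). The promoter share was also lower at like signal, with 28.9% of member and 41.8% of single summits in bin 1, 25.8% and 39.6% in bin 2, 33.7% and 42.4% in bin 3 and 23.9% and 39.0% in bin 4. In the separated intervals it was 26.6% (38 of 143). As whole intervals, 23.9% of members and 24.8% of single-summit intervals held an annotated start, although members are wider. In 22 intervals a start lay between the outer summits, among them both starts at ph-p. All summits of an interval shared 1 kind of place in 260 of 293 intervals and 1 nearest gene in 265. The strongest summit was the nearer to a start in 140 of 293. By chromosome arm the members were 4.71% of the intervals on 2L, 6.64% on 2R, 4.74% on 3L, 4.35% on 3R and 3.04% on X.

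The nearest start belonged to 269 different genes, protein-coding for 222 intervals, annotated as ncRNA for 63, as tRNA for 4, as snoRNA for 2 and as a pseudogene for 2. Of all 13968 protein-coding genes, 3.54% (495) held a member in the gene or within 5 kb, and 0.881% (123) a separated interval. Neighbouring genes share intervals under this count. An IDR interval of any kind lay in the same reach of 50.1% (7001) of all protein-coding genes. In the gene lists below such genes were more frequent, with 12 of 13 for the early mesoderm and, at the lowest, 9 of 16 for muscle structure. The counts of members per list are not adjusted for this. The gene lists were chosen with earlier results of these data known, so their counts are a description.

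Regulators and effectors of the early mesoderm had members at 8 of 13 genes, 3 with a separated interval. At twi itself, a close pair in intergenic DNA had signals of 2206 and 422, ranking 70 and 52 in replicates 1 and 2 at the stronger and 3738 and 5725 at the weaker summit, with an E-box at the stronger. A second twi interval, nearest to Fatp2, had summits 730 bp apart with replicate ranks of 383 and 294 at the strongest and 8033 and 1908 at the weakest. A pair of members lay in stumps, which encodes an adaptor of FGF receptor signalling in migrating mesoderm. The one across an intron and the promoter had a strongest rank of 108 and the one in an intron 130, with no E-box at their summits. The tin gene, encoding the heart homeodomain regulator Tinman, held a close pair in an intron 1150 bp from its start, with ranks 191 and 2412. The weaker summit had a partner in replicate 1, at rank 2976, and none in replicate 2. The list's other members were Traf4, with 3 intervals, Mef2, trbl, zfh1 and mthl1.

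Among genes of somatic muscle identity and fusion it was 6 of 18, 2 of them with a separated interval. These were Six4, sns and kirre, sns and kirre encoding immunoglobulin-type proteins of myoblast fusion, how, which encodes an RNA-binding protein of muscle and tendon, mbc and lmd. The pair at sns was 221 bp apart, just past the limit for a close pair, and ranked 94 and 3597. At mbc, which encodes a regulator of Rac in fusion, the summits were unusually equal for a close pair, with 0.836 and ranks 695 and 961. Heart mesoderm genes had 5 of 12, with Him, the T-box genes Doc2, Doc3 and mid, and tin. At Him a close pair and a separated pair, 814 bp apart, lay side by side, with strongest ranks of 133 and 363. Visceral mesoderm genes had 2 of 7, bap and org-1, both with close pairs only.

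In genes of the neurogenic ectoderm, which flanks the mesoderm, 4 of 12 held a member: sim, vnd, aos and ths, none with a separated interval. Among segmentation genes it was 2 of 17. These were hh, with a close pair in an intron, and slp1, with 3 intervals, of which the most equal had ranks 2930 and 3194 at 562 bp. Notch pathway and Bearded genes had 7 of 12, 6 of them with a separated interval. Those 6 genes share the separated intervals near E(spl)m6-BFM (281 bp), E(spl)m5-HLH (841 bp after merging) and Brd (236 bp). The genes of this list with members lie in a pair of gene complexes. E(spl)m3-HLH, E(spl)m5-HLH, E(spl)m7-HLH and E(spl)m8-HLH encode repressors that respond to Notch, and Brd, Tom and Ocho encode small antagonists of Notch signalling. Between E(spl)m5-HLH and its neighbours an interval held summits of 294, 625 and 316 in coordinate order, with E-boxes at the first and second. The pair near Brd was 236 bp apart, with ranks 1430 and 2545. Wnt pathway genes had 2 of 8, fz2 and arr. Genes of muscle structure had 1 of 16, Act87E, and ribosomal proteins 1 of 14, RpL8, whose interval lay in an intron of msn.

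No gene held more than 3 members. Those with 3 were SKIP, rdx, Traf4, lncRNA:CR45363, CG42807, CG45088, CG6191, lncRNA:CR44365, lncRNA:CR44366, E(spl)m6-BFM, Keap1, slp1 and kuk. They fall into fewer places than genes, since CG42807, CG45088, CG6191, lncRNA:CR44365 and lncRNA:CR44366 are neighbours and share intervals, and Keap1 lies beside kuk. Traf4 and lncRNA:CR45363 likewise overlap. The shortest of the coding genes, E(spl)m6-BFM, spans 1.137 kb and had 5 IDR intervals in reach, 3 of them members, while SKIP spans 162.297 kb and had 14, of which 3 were members.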

How the data were processed

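The authors deposited narrowPeak lists in dm6 coordinates, per the labels, with 30000 summits in each replicate and pooled list and 6516 in the IDR list. The signal per peak is a score that the authors deposited without a stated scale or normalization, and it served here for ranks and for ratios within 1 list. The deposited −log10 q-values are tied at their highest value over the IDR list and were left aside. No aligner or peak caller is named (not given in the sources used here). Depth is unknown. Confidence intervals therefore count peaks only, and those over member summits treat the summits of 1 interval as independent.

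Members, gene lists and tests were chosen with earlier results of these data known. Sequence came from RefSeq Release 6 and genes from Ensembl release 115, without transposable elements (18277 genes). Positions are 1-based. Summits were matched one to one within 100 bp, nearest first. A summit not within 500 bp of a start was placed in a coding exon, UTR, other exon, intron or intergenic DNA, in that order. E-boxes were sought within 50 bp of a position and compared by exact two-sided McNemar tests with a threshold of 0.05, checked on simulated data. With 1 group and 2 replicates nothing was tested across samples. Alternatives changed the list, the signal limit, the matching distance and the windows, left out a replicate, or merged close pairs.

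Genes were named that lay nearest to the 10 intervals of highest signal, the 10 with most summits, the 5 largest and 5 smallest distances and the 5 most and 5 least equal pairs, with the genes holding most members and up to 6 of each list. The 5 smallest distances, all 199 bp, lay near CG44286, CG13539, CG6244, sug and RhoGEF3. Other genes named were chosen after their values were seen. Software was Python 3.11.15 with pandas 2.3.3, scipy 1.17.1, numpy 2.4.6 and, for figures, matplotlib 3.10.9.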

Additional observations from a re-analysis of the deposited data

How the results depend on the processing

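No paired analysis was possible because the series holds 1 group only. Of 52 alternatives over 11 results, 29 kept the value within its limits, 22 moved it and 1 lost a call; none reversed a direction. Without replicate 1 or replicate 2, each read from the other replicate's list cut to the IDR number, there were at most 240 intervals, median distances of 0.203 to 0.204 kb, ratios of 0.380 to 0.382 and promoter shares of 20.4 to 27.5%. With the 293 intervals kept and matched to 1 replicate alone, every summit had a partner in 91.8 to 94.2%. The pooled list gave 577 intervals and a ratio of 0.255, and the higher-signal part of the IDR list (IDR peaks split at the median rank) 152 intervals. Matching within 50 bp gave 76.1%. Promoters of 250 bp and of 1 kb gave 16.1% and 39.9%, and E-box windows of 25 and 100 bp on each side 18.7% and 48.8%. Gene windows of 1 and 10 kb gave 251 and 819 genes, and the nearest start 230. The call that was lost came with merging close pairs, an alternative added after seeing the data: 8.70 percentage points more E-boxes at the strongest than at the weakest summit, with p = 0.345 by the exact McNemar test, over 69 intervals in place of 293; fewer intervals entered the test, and the share at the weakest summit was higher. Merging also gave 69 intervals, a distance of 0.548 kb, a ratio of 0.554, an E-box share of 47.6% and 123 genes. The midpoint comparison held under each alternative run, with differences of 14.7 to 42.6 percentage points. The files give no read positions, so a shoulder of a peak and a second site cannot be told apart at close distance.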
